A study of Mus musculus with 6 samples.

Results

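The mitochondrial genome was examined as a complete set of genes in mouse tibialis anterior (TA) muscle. Its members were all rows of the deposited expression table whose symbol begins with mt-, which gave 37 of 41709 rows, made up of 13 mRNAs, 2 rRNAs and 22 tRNAs. RNA-seq was done on 6 TA muscles of male C57BL/6J mice, 3 electroporated with a plasmid for wild-type Lrpprc (LrpprcWT) and 3 with a plasmid for LrpprcP27A, a variant that cannot be dihydroxylated because proline 27 is replaced by alanine. Both plasmids were pCMV6 vectors that encode Flag-tagged mouse Lrpprc and differ in that residue, both groups also carry the mouse's own Lrpprc, and muscles were collected 14 days after electroporation. The plasmids went into opposite legs of each mouse, and same-numbered libraries were taken as pairs where pairing is named. Electroporation reaches part of the fibres, so each library mixes RNA of transfected and untransfected cells, and the age of the mice behind these libraries is not stated outright in the sources used here. No mock-electroporated muscle is among the 6 libraries, so each comparison is between the 2 plasmids.

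The mitochondrial genome is a small circular DNA that encodes subunits of the respiratory chain and of ATP synthase, together with the rRNAs and tRNAs that its own ribosomes need. Both strands are transcribed as long precursors, tRNAs are cut out at the boundaries between genes, and the released mRNAs receive short poly(A) tails. Lrpprc forms a complex with Slirp that binds mitochondrial mRNAs, keeps them stable and promotes their polyadenylation, and loss of Lrpprc is known for low mitochondrial mRNA levels and for failure of complex IV assembly. The comparison therefore asks whether the P27A variant goes with other levels of the transcripts that Lrpprc binds. The libraries were made from poly(A)-selected RNA, so mRNA levels below are those of RNA that passed this selection. A change in level and a change in polyadenylation cannot be told apart in them.

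On the GRCm39 assembly with the GENCODE vM39 annotation, the 37 genes lie on the 16299 bases of chrM, 28 on the strand written as plus and 9 on minus. Of the mRNAs only mt-Nd6 is on the minus strand, and its coding sequence holds 28.1% G and 5.97% C, whereas G makes up 5.88% to 16.1% of the other 12. Genes abut or overlap, and each protein-coding gene is counted here as an mRNA, although overlapping genes need not lie on separate molecules. Shown are 2 pairs of such genes that overlap on the plus strand, because their TPM ratios are compared further on. At chrM:7915-7981 (plus strand), the capitals mark the 43 bases that belong to the end of mt-Atp8 and to the start of mt-Atp6, 2 subunits of ATP synthase. At chrM:10149-10191 (plus strand), the capitals mark the 7 bases shared by mt-Nd4l and mt-Nd4, 2 subunits of complex I.
mt-Atp8 and mt-Atp6: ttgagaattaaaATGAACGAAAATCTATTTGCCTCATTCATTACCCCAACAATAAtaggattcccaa
mt-Nd4l and mt-Nd4: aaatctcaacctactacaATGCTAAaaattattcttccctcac

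mt-Atp6 and mt-Co3 also share 1 base on the plus strand, and mt-Nd5 and mt-Nd6 overlap by 14 bases on opposite strands. The TruSeq kit used does not mark strand, so fragments from such overlaps cannot be told apart by strand. In 3 of the 13 mRNAs, the annotated coding sequence ends in a lone T and the stop codon is completed by the poly(A) tail. Their last 30 annotated bases (plus strand) are shown with that T in capitals, because these messages depend on polyadenylation to be read to a proper end.
mt-Co3 (gene at chrM:8607-9390): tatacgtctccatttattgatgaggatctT
mt-Nd4 (gene at chrM:10167-11544): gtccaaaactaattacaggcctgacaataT
mt-Cytb (gene at chrM:14145-15288): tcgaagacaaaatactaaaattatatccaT

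Mitochondrial mRNAs were among the most abundant transcripts of these muscles. The values are TPM, in which a gene's fragments are divided by its length and scaled to a fixed total. Levels can therefore be compared between genes, but a value shifts when the rest of the library does. Of the 20 genes of highest mean TPM in the series, 12 were mitochondrial mRNAs, and the first 4 places were held by mt-Co1, mt-Co2, mt-Atp6 and mt-Co3. Their order hardly differed between libraries, and 9 of the 15 mRNAs and rRNAs held the same place among the 15 in all 6. After mt-Co3 came mt-Cytb, mt-Nd1, mt-Atp8, mt-Nd4, mt-Nd2 and mt-Nd4l, then mt-Nd5 and mt-Nd3, then mt-Rnr2, mt-Rnr1 and mt-Nd6. Levels of mt-Nd5 and mt-Nd3 were not ordered, as mt-Nd5 was above mt-Nd3 in 3 of 6 libraries. mt-Nd1 was above mt-Atp8 in 5 of 6 libraries, as was mt-Atp8 above mt-Nd4. Mean TPM of the highest mRNA, mt-Co1, was 176 times that of the lowest, mt-Nd6, and 5.51 times that of mt-Nd3, the lowest of the 12 mRNAs on the plus strand. These are levels after poly(A) selection, and whether mt-Nd6 or other members were captured less well was not tested.

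**Figure D1:**
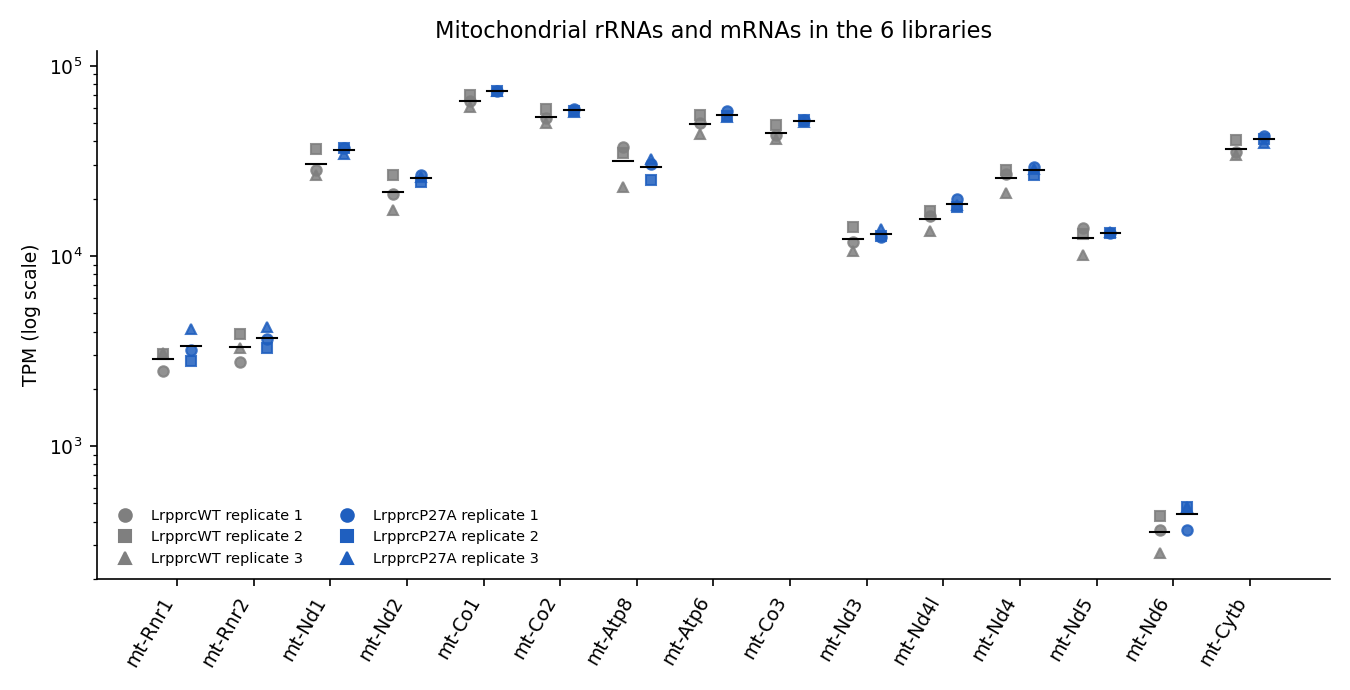
TPM (log scale) of the 2 mitochondrial rRNAs and 13 mRNAs in genome order, with 1 point per library (LrpprcWT grey, LrpprcP27A blue, marker shape for the replicate) and a black bar for each group mean. The order of the genes is nearly the same in all 6 libraries, mt-Nd6 lies lowest at 275 to 480 TPM, and the groups overlap for most genes.

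Multiplied by gene length, all 121 member values above 0 were whole multiples of 1 step per library (within 0.01 of a whole number), and these multiples are taken as fragments here. The members held 6272700 to 8687118 fragments per library. For the mRNAs, counting error came to 0.0760% to 1.96% of a value, against a coefficient of variation between libraries of 7.31% to 24.04% with LrpprcWT and 0.282% to 15.8% with LrpprcP27A. Spread between muscles and libraries, and not counting, therefore set the precision of the mRNA values. The libraries of each group are separate muscles, and intervals from fragment counts cover counting error only.

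In the comparison of the groups, none of the 13 mRNAs passed the limma test in either direction, 1 of them (mt-Nd4l) had an unadjusted p under 0.05, and the Kruskal-Wallis test called none. For each of the 11611 genes of the series whose mean TPM reached 1, limma was run on log2(TPM + 1), with Benjamini-Hochberg adjustment over those genes, and a gene was called at an adjusted p under 0.05. Of all tested genes, 23.3% were called lower and 1.34% higher with LrpprcP27A. At an unadjusted limma p under 0.05, these shares were 44.2% and 2.59%. Against this background, 12 of 13 mRNAs had a log2 fold change (LrpprcP27A minus LrpprcWT) above 0 and 1 was below, with a median of 0.17, whereas the median over all tested genes was -0.32 and 87.99% of them were below 0. The 95% confidence intervals of the 13 mRNAs reached from -0.52 to 0.73, so larger shifts than that lay outside the interval of every mRNA. The mRNAs were measured in the same libraries and several share precursors, so they are not independent of each other.

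Complex I, which oxidizes NADH, contains 7 of the encoded subunits. mt-Nd1 (chrM:2751-3707), a membrane subunit next to the quinone site, had 28449, 36458 and 26716 TPM in the LrpprcWT libraries and 36904, 36860 and 34420 TPM in the LrpprcP27A libraries of replicates 1, 2 and 3. Replicate 2 of LrpprcWT lay within the LrpprcP27A range while the other two were below it, and each LrpprcP27A library was above its same-numbered partner (log2 fold change 0.25, SE 0.14, limma adjusted p = 0.165). mt-Nd2 (chrM:3914-4951), a subunit of the proton-pumping membrane arm, had 21106, 26616 and 17447 TPM with LrpprcWT and 26523, 24476 and 26110 TPM with LrpprcP27A. These groups also overlapped, because the highest value was that of LrpprcWT replicate 2 (log2 fold change 0.26, SE 0.15, limma adjusted p = 0.195). For mt-Nd3 (chrM:9459-9806), a small subunit at the junction of the arms, the values were 11815, 14186 and 10656 TPM against 12627, 12777 and 13859 TPM. LrpprcWT held both the highest and the lowest of these (log2 fold change 0.11, limma adjusted p = 0.493).

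mt-Nd4l (chrM:9877-10173), a small membrane subunit, was the complex I mRNA whose groups did not overlap. It had 16156, 17125 and 13535 TPM with LrpprcWT and 20010, 17977 and 18546 TPM with LrpprcP27A. All LrpprcP27A libraries were above all LrpprcWT libraries, with means of 18845 ± 1049 and 15605 ± 1858 TPM (SD, n = 3). The log2 fold change was 0.28 (SE 0.12, 95% interval 0.0042 to 0.55), and the limma adjusted p of 0.103 missed the threshold. mt-Nd4 (chrM:10167-11544), a large pumping subunit whose start lies in the end of mt-Nd4l, had 26912, 28251 and 21447 TPM with LrpprcWT and 29345, 26570 and 28641 TPM with LrpprcP27A. Its groups overlapped (log2 fold change 0.15, limma adjusted p = 0.357). The longest coding sequence of the genome, mt-Nd5 (chrM:11742-13565), another pumping subunit, was at 13951, 13002 and 10089 TPM against 13199, 13172 and 13345 TPM. The LrpprcP27A values of mt-Nd5 varied by 0.704%, whereas LrpprcWT held the highest and the lowest library (log2 fold change 0.11, limma adjusted p = 0.492).

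mt-Nd6 (chrM:13552-14070, minus strand), the subunit encoded opposite to the rest, had 360, 426 and 275 TPM with LrpprcWT and 360, 480 and 479 TPM with LrpprcP27A. Its groups overlapped at replicate 1, where the values of both groups were 360 TPM, and its log2 fold change of 0.32 was the largest of the 13 (SE 0.18, limma adjusted p = 0.174). The TPM of mt-Nd6 was 0.0258 to 0.0364 times that of mt-Nd5 on the other strand. As the kit does not mark strand, its value also depends on how fragments from the 14-base overlap and from antisense RNA were assigned.

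The single complex III subunit of the genome, cytochrome b (mt-Cytb), had 35138, 40536 and 34129 TPM with LrpprcWT and 42499, 41162 and 39242 TPM with LrpprcP27A. Each LrpprcP27A library exceeded its partner, but LrpprcWT replicate 2 lay above LrpprcP27A replicate 3 (log2 fold change 0.17, SE 0.11, limma adjusted p = 0.255).

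Complex IV, cytochrome c oxidase, takes its catalytic core from mt-Co1, mt-Co2 and mt-Co3. mt-Co1 (chrM:5328-6872), which holds the site where oxygen is reduced, had 65210, 70632 and 61067 TPM with LrpprcWT and 73724, 73501 and 73916 TPM with LrpprcP27A. The LrpprcP27A libraries had a coefficient of variation of 0.282% and lay above every LrpprcWT library, with a log2 fold change of 0.17 (SE 0.11, limma adjusted p = 0.229). mt-Co3, a structural core subunit, had 43413, 48693 and 41318 TPM with LrpprcWT and 51773, 51879 and 50609 TPM with LrpprcP27A. These groups did not overlap either (log2 fold change 0.21, SE 0.11, limma adjusted p = 0.151). mt-Co2 (chrM:7013-7696), which accepts electrons from cytochrome c, had 53086, 59038 and 50198 TPM against 59247, 58115 and 57275 TPM. Here LrpprcWT replicate 2 fell among the LrpprcP27A values (log2 fold change 0.11, limma adjusted p = 0.431).

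ATP synthase takes 2 membrane subunits from the genome. mt-Atp8 (chrM:7766-7969), a short stator subunit, had 37224, 34820 and 22997 TPM with LrpprcWT and 30384, 25205 and 32401 TPM with LrpprcP27A. It was the one mRNA whose log2 fold change was negative with the TPM as deposited (-0.09, SE 0.19, limma adjusted p = 0.714), a sign that turned to 0.29 with median-of-ratios scaling and to 0.10 when scaled to nuclear protein-coding genes. Its LrpprcWT libraries enclosed the range of the other group and varied by 24.04%, the most of any mRNA. mt-Atp6 (chrM:7927-8607), which forms the proton channel, had 50030, 54962 and 43649 TPM against 57963, 54157 and 53543 TPM, and its groups overlapped (log2 fold change 0.16, limma adjusted p = 0.295).

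Across the 13 mRNAs, the groups did not overlap for mt-Co1, mt-Co3 and mt-Nd4l, all 3 of them higher with LrpprcP27A, and for none were all LrpprcP27A libraries lower. Over all tested genes, groups did not overlap for 3.51% in the higher and 47.6% in the lower direction. For 5 of the 13 mRNAs, mt-Nd1, mt-Co1, mt-Co3, mt-Nd4l and mt-Cytb, the LrpprcP27A library was above its partner in all 3 pairs. The share of all tested genes that meet this pair criterion was not counted, so no background stands beside it. LrpprcWT replicate 3 was the lowest of the 6 libraries for 13 of 13 mRNAs. The highest library varied, and was LrpprcP27A replicate 1 for 6 mRNAs. With the replicate number as a block in the limma fit, 48.4% of all tested genes were called lower and 2.69% higher, and still none of the 13 mRNAs was called, with adjusted p between 0.0604 for mt-Nd6 and 0.638 for mt-Atp8.

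**Figure D2:**
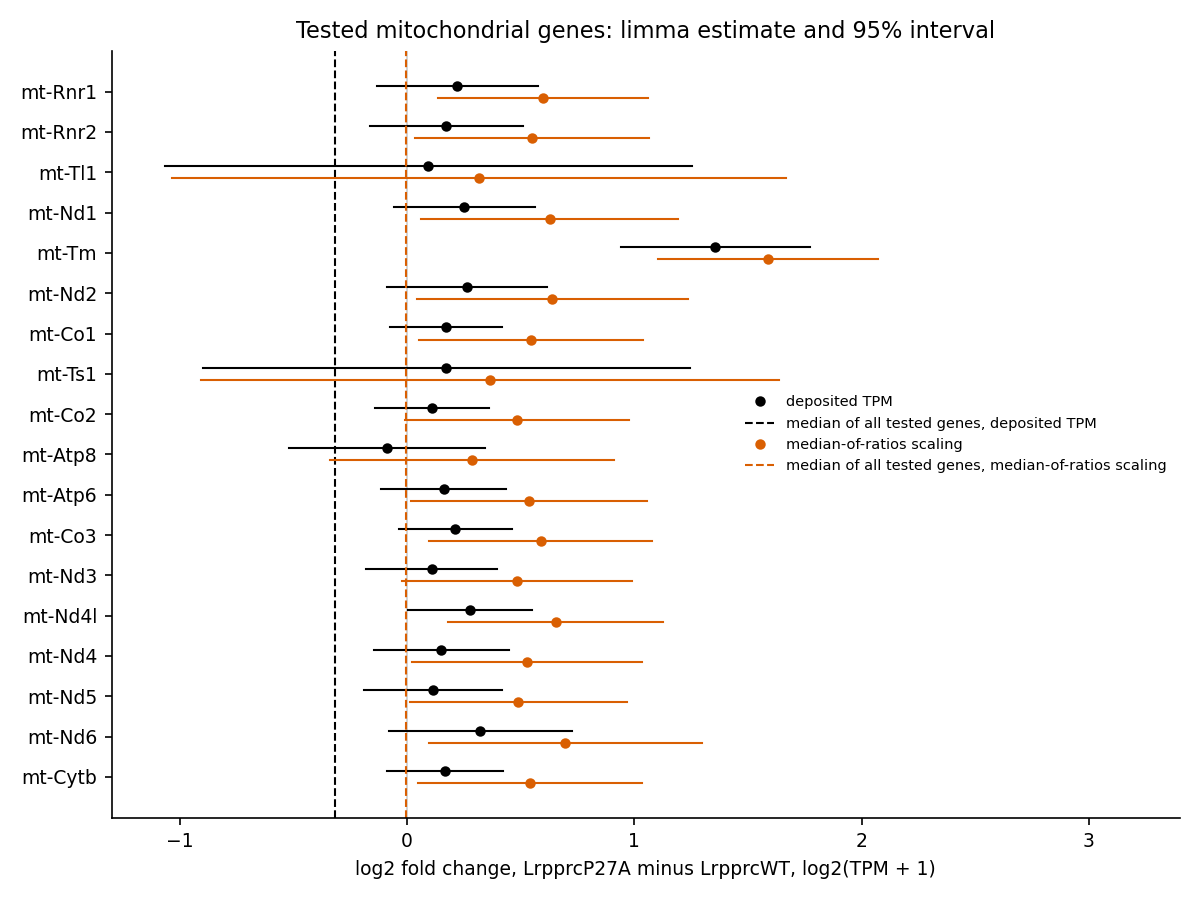
Log2 fold change (x axis, LrpprcP27A minus LrpprcWT, on log2(TPM + 1)) of the 18 tested mitochondrial genes with the limma 95% interval, on the deposited scale (black) and after median-of-ratios scaling (orange), with dashed lines for the median of all 11611 tested genes on each scale. On the deposited scale the median of all genes is -0.32 and that of the mRNAs 0.17, and after scaling these are -0.0047 and 0.54.

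The distance of the mRNAs from 0 depended on the scale. With median-of-ratios scaling, which sets the typical gene near 0 (median over all tested genes -0.0047), all 13 mRNAs had a log2 fold change above 0, from 0.29 for mt-Atp8 to 0.70 for mt-Nd6, with a median of 0.54. On that scale none passed the adjusted threshold without the block, although 10 of 13 had an unadjusted limma p under 0.05, beside 16.4% of all tested genes in the higher and 17.4% in the lower direction. With the block as well, 15.8% of all tested genes were called lower and 13.4% higher, and 2 of the 13 mRNAs were called higher, mt-Nd4l (log2 fold change 0.65, limma adjusted p = 0.0388) and mt-Nd6 (0.70, limma adjusted p = 0.0422). Such a share of 13 is close to the background. Scaled instead to their own sum, the mRNAs had a median log2 fold change of 0.0092, from -0.24 to 0.17, and none was called. That scaling removes any shift that the mRNAs share, so it can show differences among them only.

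As a share of all TPM, the 37 genes took 40.8%, 45.2% and 36.0% in the LrpprcWT libraries and 46.1%, 44.2% and 45.1% in the LrpprcP27A libraries. Nearly all of it was mRNA, with 40.3%, 44.5% and 35.4% against 45.5%, 43.6% and 44.2%. The mRNA share was thus lowest in LrpprcWT replicate 3, overlapped between groups, and averaged 40.0% ± 4.57 with LrpprcWT and 44.4% ± 0.928 with LrpprcP27A (SD, n = 3). The difference was 4.41 percentage points (two-sided exact permutation test without pairing, p = 0.3, where 3 against 3 libraries cannot go below 0.1). It was smaller than the SD of the LrpprcWT libraries and larger than that of the LrpprcP27A libraries. Without LrpprcWT replicate 3 it was 2.06 points, and without LrpprcWT replicate 2 it was 6.62 points.

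The rest of the TPM moved with the groups too. Nuclear protein-coding genes took 54.8%, 51.5% and 59.6% with LrpprcWT and 46.9%, 49.4% and 48.5% with LrpprcP27A, so that every LrpprcP27A library was lower. Nuclear rRNA, nearly all of it the row Rn18s-rs5, took 1.76%, 0.888% and 1.42% with LrpprcWT and 4.44%, 3.70% and 3.95% with LrpprcP27A. Set against nuclear protein-coding TPM, mitochondrial mRNA came to 73.6%, 86.4% and 59.3% with LrpprcWT and to 96.9%, 88.3% and 91.1% with LrpprcP27A. On this ratio all LrpprcP27A libraries were above all LrpprcWT libraries, by 19.0 percentage points on average (two-sided exact permutation test, p = 0.1, the lowest this design allows). With nuclear rRNA left out of the total, the mRNA share was 41.0%, 44.9% and 35.9% against 47.6%, 45.3% and 46.1%, again without overlap (two-sided exact permutation test, p = 0.1). A higher share of mitochondrial RNA and a lower content of other RNA cannot be told apart in TPM, nor can fewer cells of a type and less RNA per cell.

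**Figure D3:**
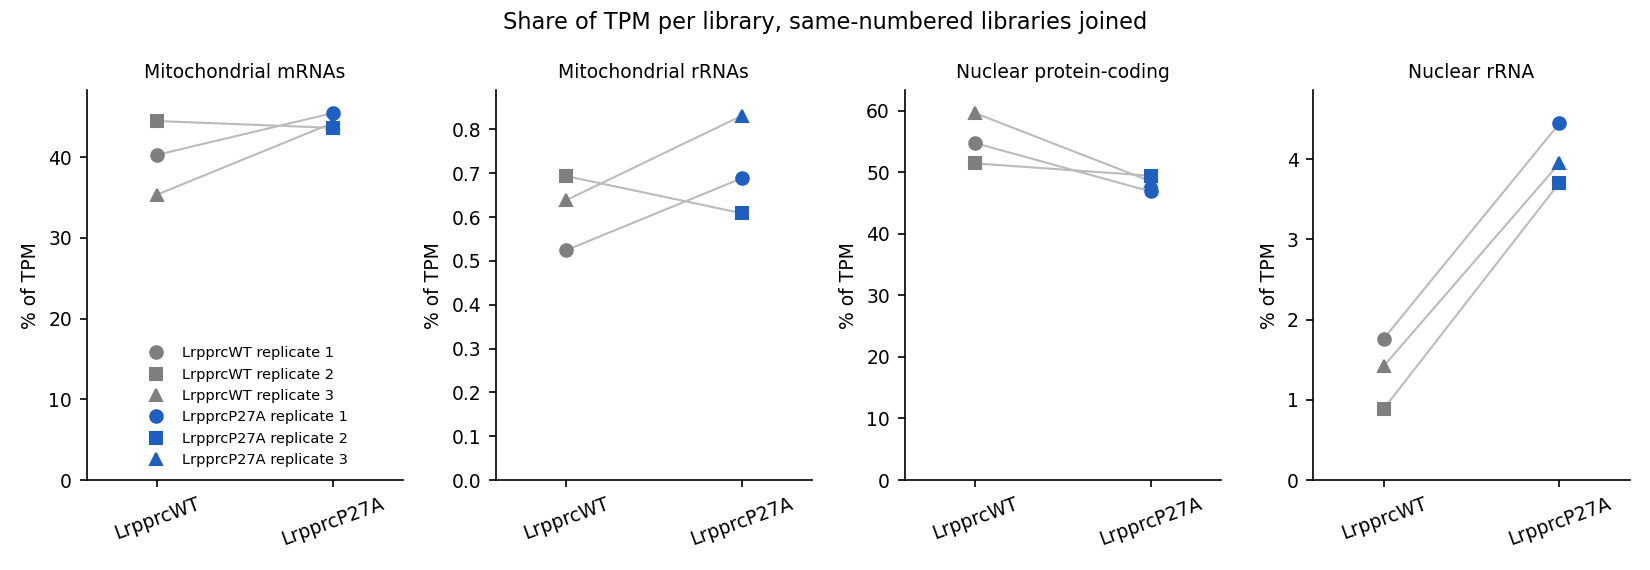
Share of TPM (y axis, percent, from 0) of mitochondrial mRNAs, mitochondrial rRNAs, nuclear protein-coding genes and nuclear rRNA in each library, with lines joining same-numbered libraries. The mitochondrial shares overlap between the groups, nuclear protein-coding genes are lower in all 3 LrpprcP27A libraries at 46.9% to 49.4%, and nuclear rRNA is higher in all 3 at 3.70% to 4.44%.

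Within the mitochondrial mRNA pool, whose composition does not depend on how libraries are scaled, the groups were close. The ratio of mean shares (LrpprcP27A over LrpprcWT) ran from 0.839 for mt-Atp8 to 1.13 for mt-Nd6, and mt-Nd4l was the one mRNA of 13 whose groups did not overlap. Its share of mitochondrial mRNA TPM was 4.01%, 3.85% and 3.83% with LrpprcWT and 4.40%, 4.12% and 4.19% with LrpprcP27A. All LrpprcP27A values were higher, by 0.342 percentage points on average (two-sided exact permutation test, p = 0.1, unadjusted over 13 such tests). By complex, the 7 complex I mRNAs took 29.5%, 30.6% and 28.3% of the pool against 30.6%, 30.3% and 30.6% (two-sided exact permutation test, p = 0.3). The 3 complex IV mRNAs took 40.1%, 40.1% and 43.2% against 40.6%, 42.1% and 41.1% (two-sided exact permutation test, p = 1), and the means of 41.1% and 41.3% were nearly equal. The 2 ATP synthase mRNAs took 21.7%, 20.2% and 18.9% against 19.4%, 18.2% and 19.4% (two-sided exact permutation test, p = 0.3). None of these complexes therefore separated the groups.

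**Figure D4:**
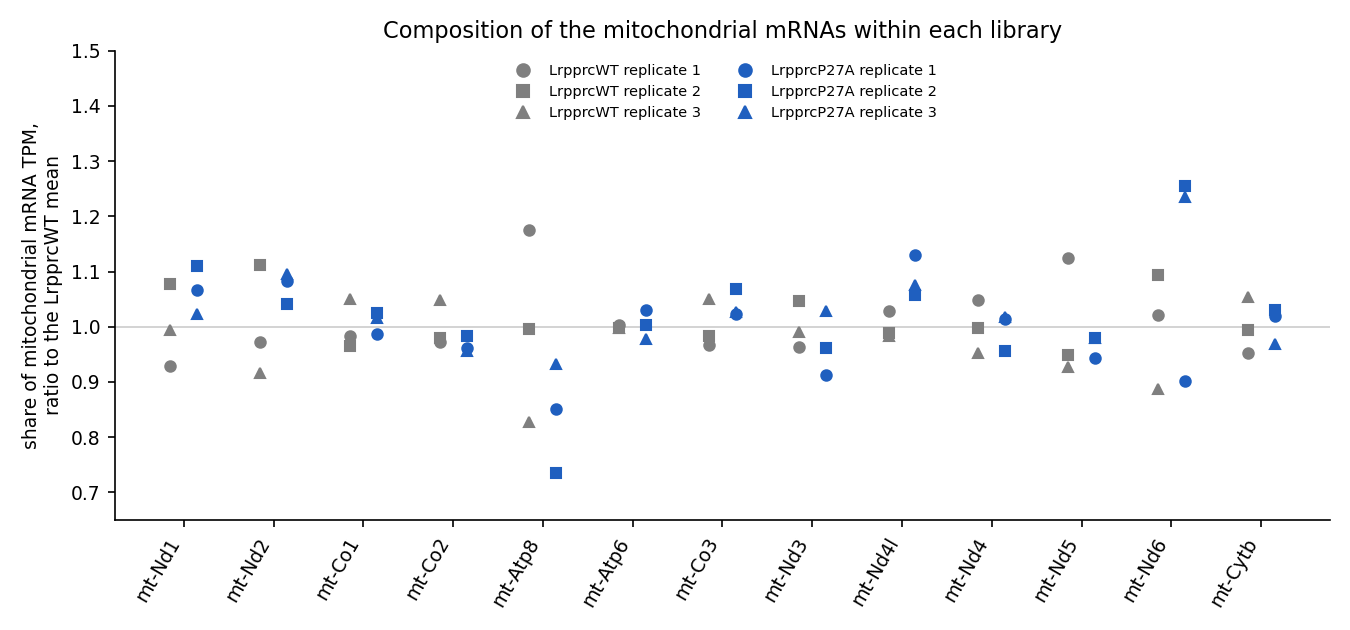
Share of each mRNA in the mitochondrial mRNA TPM of its library, divided by the LrpprcWT mean of that gene (y axis, 1 means equal to that mean), with 1 point per library. mt-Nd4l is the one mRNA whose LrpprcP27A points all lie above the LrpprcWT points, and mt-Atp8 and mt-Nd6 show the widest spread.

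The overlapping pairs shown above let neighbouring members be set against each other. The TPM ratio of mt-Nd4l to mt-Nd4 was 0.600, 0.606 and 0.631 with LrpprcWT and 0.682, 0.677 and 0.648 with LrpprcP27A. It was higher in every LrpprcP27A library (two-sided exact permutation test, p = 0.1). The ratio of mt-Atp8 to mt-Atp6 was 0.744, 0.634 and 0.527 against 0.524, 0.465 and 0.605, and the groups overlapped (two-sided exact permutation test, p = 0.2). Both ratios were below 1 in every library, and a gene of 204 or 297 bases is short relative to paired reads of 100 bases. How fragments across an overlap were assigned is not given in the sources used here. Whether these ratios reflect RNA levels, uneven coverage or that assignment was not tested.

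The 2 rRNAs form the core of the small (mt-Rnr1, 12S, chrM:70-1024) and large (mt-Rnr2, 16S, chrM:1094-2675) subunits of the mitochondrial ribosome. mt-Rnr1 had 2488, 3044 and 3087 TPM with LrpprcWT and 3211, 2807 and 4112 TPM with LrpprcP27A (log2 fold change 0.22, SE 0.16, limma adjusted p = 0.268). mt-Rnr2 had 2753, 3894 and 3295 TPM against 3674, 3282 and 4200 TPM (log2 fold change 0.17, SE 0.15, limma adjusted p = 0.356). The groups overlapped for both, and LrpprcP27A replicate 3 held the highest value of each. Relative to the mRNAs, rRNA TPM was 1.30%, 1.56% and 1.81% with LrpprcWT and 1.51%, 1.396% and 1.88% with LrpprcP27A (two-sided exact permutation test, p = 0.8). The TruSeq kit selects poly(A) RNA, so these values describe the rRNA that passed this selection and not the ribosome content of the muscle. The ratio of mt-Rnr2 to mt-Rnr1 lay between 1.02 and 1.28 in the 6 libraries (two-sided exact permutation test, p = 0.7).

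The tRNAs were near the limit of detection. Of 22 tRNA genes, 12 were at 0 in all 6 libraries, which allows up to 3 fragments or 2.10 to 2.92 TPM each, 7 were above 0 but under a mean of 1 TPM, and 3 were tested. All tRNAs together held 7, 6 and 7 fragments with LrpprcWT and 8, 29 and 13 with LrpprcP27A, 70 in all. The tRNA share of TPM was 0.000567%, 0.000428% and 0.000543% against 0.000589%, 0.00212% and 0.000937%, without overlap (two-sided exact permutation test, p = 0.1, the lowest this design allows). Without LrpprcP27A replicate 2, the difference of 0.000703 percentage points was 0.00025. The lowest LrpprcP27A share, that of replicate 1, rested on 8 fragments, 5 of them from mt-Tm, beside 7 in LrpprcWT replicate 1. Of the tRNA fragments, mt-Tm made up 14.3%, 33.3% and 14.3% with LrpprcWT and 62.5%, 24.1% and 38.5% with LrpprcP27A. Without mt-Tm, LrpprcP27A replicate 1 held the fewest tRNA fragments of the 6 libraries, and the groups overlapped. The tRNA share is therefore not independent of mt-Tm, and its lack of overlap rested on that gene. Relative to all mitochondrial fragments the groups overlapped, with 8 of 8687118 in LrpprcP27A replicate 1 and 7 of 6272700 in LrpprcWT replicate 3. Mature tRNAs are shorter than the reads and carry no poly(A) tail, so a poly(A)-selected library is not suited to measure them.

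Those at 0 were mt-Tf, mt-Ti, mt-Ta, mt-Tn, mt-Tc, mt-Td, mt-Tk, mt-Tg, mt-Tr, mt-Ts2, mt-Tl2 and mt-Tt. The 7 above 0 without a test were mt-Tv, mt-Tq, mt-Tw, mt-Ty, mt-Th, mt-Te and mt-Tp. The 3 tested tRNAs are shown 5′ to 3′ on the strand of the gene, with the anticodon in capitals, because mt-Tm was the one mitochondrial gene that passed the test and the other two were measured at the same depth.
mt-Tm (methionine, chrM:3845-3913, plus): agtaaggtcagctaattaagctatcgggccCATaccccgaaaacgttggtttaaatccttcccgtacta
mt-Tl1 (leucine, chrM:2676-2750, plus): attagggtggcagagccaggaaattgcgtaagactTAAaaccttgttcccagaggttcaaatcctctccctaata
mt-Ts1 (serine, chrM:6870-6938, minus): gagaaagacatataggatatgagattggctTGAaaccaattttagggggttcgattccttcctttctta

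mt-Tm, the single methionine tRNA of the genome, was higher with LrpprcP27A and was the one member called of the 18 tested, where 1.34% of all tested genes were called higher. It had 0.831, 1.44 and 0.791 TPM with LrpprcWT and 3.64, 5.17 and 3.69 TPM with LrpprcP27A. All LrpprcP27A values were above all LrpprcWT values, with means of 4.16 ± 0.872 and 1.02 ± 0.362 TPM (SD, n = 3). The log2 fold change was 1.36 (SE 0.18, 95% interval 0.94 to 1.77, limma adjusted p = 0.0111). These values rest on 1, 2 and 1 fragments with LrpprcWT and on 5, 7 and 5 fragments with LrpprcP27A, as 1 fragment of mt-Tm is worth 0.719 to 0.831 TPM. Per mitochondrial fragment and summed over libraries, the 17 fragments against 4 gave a ratio of 3.59 with an exact 95% interval of 1.17 to 14.7 for counting error. The limma adjusted p was 0.0837 without LrpprcWT replicate 3 and 0.0555 with no filter on low values, so the call rested on these choices while the direction did not. The Kruskal-Wallis test gave an adjusted p of 0.0969, but with 3 against 3 libraries it cannot pass the threshold and so does not bear on the call.

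mt-Tm lies directly before mt-Nd2, with no base between them, and the stretch across this boundary at chrM:3890-3937 (plus strand) is shown with the first codon of mt-Nd2 in capitals.
mt-Tm to mt-Nd2: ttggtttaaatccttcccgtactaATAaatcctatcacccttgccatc

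A fragment of an uncut precursor would span this boundary, and whether the fragments given to mt-Tm came from cut or uncut RNA was not tested. mt-Nd2 itself overlapped between the groups at 17447 to 26616 TPM. The other tested tRNAs showed no separation, with mt-Tl1 at 2.29, 0.661 and 1.45 TPM against 0, 3.399 and 2.71 TPM (log2 fold change 0.09, limma adjusted p = 0.885). mt-Ts1 had 0.831, 0.719 and 1.58 TPM against 0, 3.69 and 1.47 TPM (log2 fold change 0.17, limma adjusted p = 0.774). Both were at 0 in LrpprcP27A replicate 1 and highest in LrpprcP27A replicate 2, and the sign of both log2 fold changes turned with a pseudocount of 0.1 (-0.51 and -0.37). mt-Tv, the valine tRNA between the rRNAs, had 0, 0.719 and 0.791 TPM against 0, 3.69 and 0.737 TPM. mt-Tw, the tryptophan tRNA after mt-Nd2, had 0, 0 and 0.814 TPM against 1.498, 2.28 and 0.759 TPM. For neither were the groups separate.

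**Figure D5:**
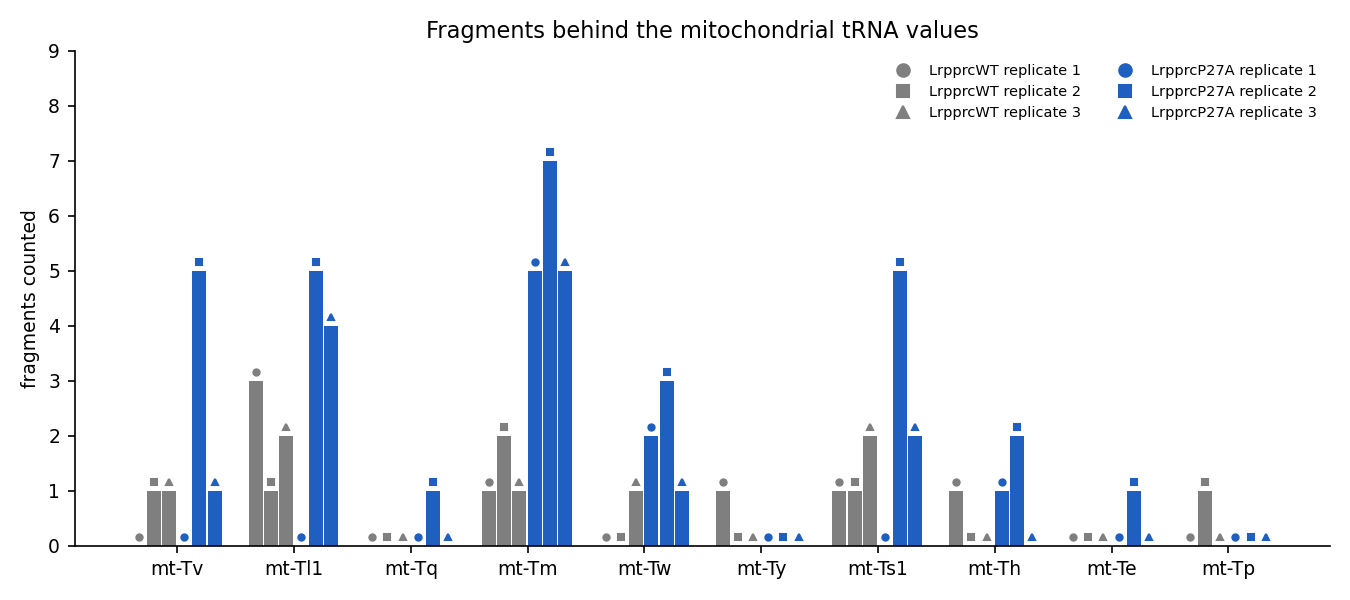
Fragments counted (y axis, from 0) for the 10 mitochondrial tRNA genes above 0, with 1 bar per library (LrpprcWT grey, LrpprcP27A blue, marker shape for the replicate). mt-Tm has 1 to 2 fragments in the LrpprcWT libraries and 5 to 7 in the LrpprcP27A libraries, and no bar is higher than 7.

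Part of the members share sequence with nuclear copies of mitochondrial DNA. Of the annotated nuclear transcripts, 12 matched chrM over at least 100 bases at 95% identity or more, 5 of them at 100%, and together they cover 11 members, 10 of which are mRNAs. These copies were not analysed here, and how reads that match both places were assigned is not given in the sources used here, so the mRNA values may include or lack such reads.

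The gene electroporated in both groups, Lrpprc, had 35.1, 36.98 and 75.2 TPM with LrpprcWT and 26.9, 29.7 and 26.0 TPM with LrpprcP27A. Plasmid and endogenous transcripts cannot be told apart in these values. All LrpprcP27A libraries were lower (log2 fold change -0.72, SE 0.26, limma adjusted p = 0.0652, and 0.00243 with the replicate block), and LrpprcWT replicate 3, the lowest library for every mitochondrial mRNA, held by far the highest Lrpprc value. After median-of-ratios scaling, Lrpprc had a log2 fold change of -0.36 (limma adjusted p = 0.331). The part of the Lrpprc level in the mitochondrial values was not tested. Its partner Slirp had 14.4, 15.2 and 18.01 TPM against 12.2, 13.1 and 13.8 TPM (log2 fold change -0.26, limma adjusted p = 0.142), and its sign turned to 0.09 with median-of-ratios scaling.

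The nuclear genes that copy, transcribe, process, modify and translate the mitochondrial genome were taken as a list of 46 genes that includes Lrpprc and Slirp, of which 45 were tested. On the deposited scale, where 23.3% of all tested genes were called lower, 2 of the 45 were called lower, Mterf2, a protein that binds mitochondrial DNA and acts in transcription (log2 fold change -0.46, limma adjusted p = 0.0491), and Ptcd3, a protein of the small mitochondrial ribosomal subunit (-0.40, limma adjusted p = 0.048), and none was called higher. At an unadjusted limma p under 0.05 these counts were 21 and 1 of 45. Of all tested genes, 44.2% in the lower and 2.59% in the higher direction passed that limit. The Kruskal-Wallis test called 0, an outcome that 3 against 3 libraries fix in advance. The list had a median of -0.30 beside -0.32 over all tested genes, and 42 of 45 were below 0 beside 87.99% of all. Its groups did not overlap for 22 genes in the lower and for 1 gene in the higher direction, again beside 47.6% and 3.51% of all tested genes. With the replicate block, 16 of 45 were called lower and 1 higher, beside 48.4% and 2.69% of all tested genes. With median-of-ratios scaling, which called 6.03% of all tested genes lower and 5.25% higher, none of the list was called lower (0 at an unadjusted limma p under 0.05) and 1 was called higher, Top1mt, the mitochondrial topoisomerase (7.75, 9.90 and 8.76 TPM against 10.05, 12.3 and 12.1 TPM, log2 fold change 0.69, limma adjusted p = 0.0476). The median of the list was close to that of all tested genes. On the deposited scale, its share of genes called lower was below theirs at the adjusted threshold. It was close to theirs at an unadjusted limma p under 0.05 (21 of 45 beside 44.2%) and by groups without overlap (22 genes beside 47.6%). The 13 mRNAs of the mitochondrial genome lay above the median of all tested genes on both scales. Median-of-ratios scaling divides all genes of a library by 1 factor, so the second scale is no separate evidence for this.

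Markers of the cell types that a whole muscle holds were read beside these values. The 4 muscle fibre markers (Acta1, Ckm, Mb and Tnnt3) summed to 71198 to 79378 TPM with LrpprcWT and 67464 to 73698 TPM with LrpprcP27A, and none was called, so the markers of the labelled tissue were abundant in all 6 libraries. Of the fibre type myosins, Myh2, typical of oxidative fast fibres, was called lower, with 377, 262 and 313 TPM against 131, 98.1 and 213 TPM (limma adjusted p = 0.0236), and Myh7 of slow fibres stood at 0.177 to 14.9 TPM. Myh1 and Myh4 of other fast fibres were not called without the block. Myh1 had 7540, 5137 and 6488 TPM against 5294, 4475 and 4792 TPM (log2 fold change -0.38, limma adjusted p = 0.0804, and 0.015 with the replicate block). Myh4 had 11282, 14369 and 12083 TPM against 13932, 17667 and 16845 TPM (log2 fold change 0.36, limma adjusted p = 0.0751, and 0.0203 with the replicate block). Myh7 had an adjusted p of 0.243 (limma, log2 fold change -1.19), which was 0.0107 with the block. Beside 23.3% of all tested genes called lower and a median log2 fold change of -0.32, macrophage markers were called lower for 6 of 6 genes (sum 261 to 511 TPM against 88.4 to 173 TPM), fibroblast markers for 5 of 5 (811 to 1350 against 212 to 464 TPM) and endothelial markers for 2 of 4 (134 to 247 against 96.5 to 134 TPM). Of the adipocyte markers (6.75 to 20.96 against 12.9 to 27.6 TPM) 0 of 2 tested were called, and of the erythroid markers (1592 to 2582 against 2312 to 2874 TPM) 0 of 3. The replicate block, with which 48.4% of all tested genes were called lower and 2.69% higher, called all 4 endothelial markers lower, Cfd of adipocytes higher (log2 fold change 0.66, limma adjusted p = 0.0233) and Hbb-bs of erythroid cells higher (0.31, limma adjusted p = 0.0486). Summed macrophage and fibroblast markers were thus lower in all 3 LrpprcP27A libraries, those in which mitochondrial mRNA was highest relative to nuclear protein-coding RNA, and their part in that ratio was not tested.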

How the data were processed

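RNA of 6 mouse TA muscles (3 LrpprcWT, 3 LrpprcP27A) was made into libraries with a TruSeq v2 kit from Illumina and sequenced as paired reads of 100 bases. The authors quality-trimmed the reads, mapped them to GRCm39 with CLC Genomics Workbench, and deposited 1 TPM value per gene and library. The annotation behind the table is not given in the sources used here.

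From the deposited TPM, log2(TPM + 1) was fitted with limma 3.58.1 in R 4.3.3 (empirical Bayes moderation with a trend, two-sided) in 11611 genes whose mean TPM reached 1. Fold changes on this scale understate changes of low genes. Shares of TPM were compared by two-sided exact permutation tests over libraries. The design used was not the Kruskal-Wallis test of the study, which cannot pass an adjusted threshold with 3 against 3 and was run as an alternative. The fit was tested on simulated data. Same-numbered libraries deviated together from their group means (correlations of 0.36, 0.53 and 0.36 across genes), and the pairing comes from the study's contralateral muscles. Fragments are TPM times gene length divided by 1 step per library, and zero allows 3 fragments. Gene positions and sequences were read from GRCm39 with GENCODE vM39 by symbol (37 of 37 matched), and nuclear copies were found with blastn 2.17.0. Every mitochondrial mRNA and rRNA is named with all values, as are tRNAs that were called or were among the 5 of highest mean TPM. The members and gene lists were chosen with earlier results of these data known. Alternatives were another pseudocount, other filters, limma without trend, the replicate block, other scalings and each library left out.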

Additional observations from a re-analysis of the deposited data

How the results depend on the processing

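Of the 18 tested members, 1 was called higher (mt-Tm) and 0 lower with the settings used. The count higher was 0 with no filter, with a mean TPM of at least 5 (which leaves mt-Tm untested) and by the Kruskal-Wallis test, 3 with median-of-ratios scaling and the replicate block, and 0 to 5 with libraries left out, the extremes being without LrpprcWT replicate 3 and without LrpprcWT replicate 2. Over all tested genes, 9 of 21450 were called higher with no filter, and 1561 of 11611 with median-of-ratios scaling and the block. Without LrpprcWT replicate 3 these were 3 of 11476, and without LrpprcWT replicate 2 they were 304 of 11622. The count lower was 0 to 1 with libraries left out, where the 1 is mt-Atp8 without replicate 3 of both groups under the block. In that fit, 2844 of 11562 tested genes were called lower. For mt-Tm the log2 fold change ran from 1.22 to 1.96. Of the 45 machinery genes, 2 were called lower and 0 higher. The replicate block gave 16 and 1, and median-of-ratios scaling 0 and 1, or 0 and 7 with the block. The lower count was also 0 with no filter, without trend, with nuclear protein-coding scaling, with quantile normalization and, by design, with Kruskal-Wallis. With libraries left out it was 0 to 29, highest without LrpprcWT replicate 2, and 0 to 1 genes were higher. These counts stand beside those of all tested genes called lower. They were 6918 of 11622 without LrpprcWT replicate 2 and 14 of 11476 without LrpprcWT replicate 3. With no filter they were 42 of 21450. Of 11611 genes, 2622 were lower without trend, 638 with nuclear protein-coding scaling and 518 with quantile normalization. Shares of mRNAs whose groups did not overlap numbered 1, and 2 when all pairs had to move one way, and 1 to 4 with libraries left out. The replicate block changed no other call of a member, and the paired exact tests of the mitochondrial and mRNA shares gave p = 0.5.

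Signs turned as follows. With quantile normalization, mt-Nd2 was at -0.028 and mt-Nd4 at -0.046, while mt-Nd1, mt-Co1 and mt-Co2 stood at 0. That method gives genes of equal rank the same value in every library, so it can show little of a shift in top-ranked genes. With mitochondrial mRNA scaling, with or without the block, mt-Co2 was at -0.048, mt-Nd3 at -0.049, mt-Nd4 at -0.0055 and mt-Nd5 at -0.043. mt-Atp8 was at 0.10 with nuclear protein-coding scaling and at 0.29 with median-of-ratios scaling, with or without the block, at -0.30 to 0.044 with 1 library left out, and at -0.38, 0.014 and 0.10 with the block and 1 pair left out. With a pseudocount of 0.1, mt-Tl1 was at -0.51 and mt-Ts1 at -0.37. With 1 library left out, mt-Nd5 ran from -0.025 to 0.21 and mt-Tl1 from -0.30 to 0.77. With the block and pair 3 left out, mt-Nd3 was at -0.028, mt-Nd5 at -0.031 and mt-Tl1 at -0.16, and mt-Tl1 was at -0.56 without pair 2 and at 1.00 without pair 1. The cause of these changes was not tested. Nuclear and mitochondrial scalings with the block, and the block without 1 pair, were chosen after seeing the data. An alternative that adds nuclear copies to the members was not run, because none of the 12 copies was matched to a row by symbol. No tRNA had more than 7 fragments in a library, which limits every statement on them.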
